A study of Mus musculus with 80 samples.

Results

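Ifitm1, Ifitm2, Ifitm3 and Ifitm6 are mouse genes for interferon-induced transmembrane proteins, and their levels were followed through every library of a bulk RNA-seq study of blood stem and progenitor cells. They were taken by symbol as 4 genes of the 41388 in one deposited gene table and of the 40481 in the other, and all 4 were present in both. They were selected on measured values in part. Ifitm1 was chosen by its level in Flt3 ITD/+ against Flt3 +/+ HPC at P14 in these same libraries, so every comparison of Flt3 ITD/+ with Flt3 +/+ is given as a description, with no test. The proteins sit in the plasma membrane and in endosomes and hinder enveloped viruses from fusing with a cell. Their genes lie in a cluster, several carry interferon response elements, and Ifitm3 is the member best known for restricting influenza virus. Type I interferon acts through the receptor Ifnar, its kinases Jak1 and Tyk2, and a transcription factor complex that switches on the induced genes. Some Ifitm genes are also known to be expressed in stem and progenitor cells without infection.

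The 80 libraries made up 20 groups of 3 to 5, all from B6 mice, of haematopoietic stem cells (HSC) or of the more mature haematopoietic progenitor cells (HPC). In the P0 genotype set there were 4 Ifnar -/- and 5 wild type HSC libraries, and 4 Ifnar -/- and 4 wild type HPC libraries. In the P14 set, all HPC, there were 5 libraries from Ifnar -/- mice with Flt3 ITD/+, 4 from Ifnar +/- mice with Flt3 ITD/+, 4 from Ifnar -/- mice with Flt3 +/+ and 4 from Ifnar +/- mice with Flt3 +/+. No P14 group had both Ifnar copies, so the controls there were heterozygotes. Flt3 ITD, an internal tandem duplication found in acute myeloid leukaemia, keeps the receptor kinase Flt3 active. The age series held HSC from E14.5 (3 libraries), E16.5 (4), E18.5 (3), P0 (4), P7 (4), P14 (4) and adult mice of 8 weeks (4), and HPC from E16.5 (3), P0 (4), P7 (4), P14 (5) and adult mice of 8 weeks (4). The organ and the sorting markers are not given in the sources used here. The labels do not say that libraries of a group came from separate animals, so the p-values measure the spread between these libraries, which may be technical.

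Library depth was 6.95 to 24.0 M reads in the HSC age series, 7.91 to 25.4 M in the HPC age series, 37.0 to 46.3 M in P0 HSC of the genotype set, 11.7 to 14.7 M in P0 HPC of that set, and 58.4 to 92.1 M in P14 HPC of that set. The stem cell gene Slamf1 stood at 5.66 to 24.9 RPKM (reads per kilobase of transcript, scaled to library size) in the HSC libraries of the age series and at 0.104 to 5.36 RPKM in the HPC libraries. Cd48, a surface protein of progenitors, stood at 1.19 to 47.0 RPKM in those HSC and at 256 to 478 RPKM in those HPC. These fitted the labels, although Cd48 was lower in Ifnar -/- P0 HPC, at 117 to 245 RPKM, against 300.1 to 368 RPKM in wild type P0 HPC. Slamf1 was higher in Ifnar -/- P0 HPC, at 6.16 to 11.6 RPKM, against 1.92 to 3.49 RPKM in wild type P0 HPC. At P14, Cd48 stood at 160 to 191 RPKM in Ifnar -/- Flt3 +/+ HPC and 233 to 347 RPKM in Ifnar +/- Flt3 +/+ HPC. With Flt3 ITD/+ it stood at 376 to 475 RPKM in Ifnar -/- HPC and 402 to 418 RPKM in Ifnar +/- HPC. The part of these marker differences in the Ifitm changes was not tested. The labels do not say which part of which receptor gene the Ifnar -/- allele lacks, and Ifnar1 reads over the whole gene did not mark the knockouts. Ifnar1 stood at 13.3 to 15.0 RPKM in Ifnar -/- P0 HPC and 9.16 to 13.5 RPKM in wild type P0 HPC, and at 9.88 to 11.9 RPKM in Ifnar -/- P0 HSC and 8.69 to 12.7 RPKM in wild type P0 HSC. At P14 it stood at 7.20 to 9.15 RPKM in Ifnar -/- Flt3 ITD/+ HPC and 7.58 to 9.83 RPKM in Ifnar +/- Flt3 ITD/+ HPC, and at 9.15 to 10.5 RPKM in Ifnar -/- Flt3 +/+ HPC and 2.86 to 8.77 RPKM in Ifnar +/- Flt3 +/+ HPC.

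The start regions of the 4 genes lay within 61231 bases of mouse chromosome 7. They are shown because Ifitm3 and Ifitm6 passed the test for loss of Ifnar in some comparisons and Ifitm1 and Ifitm2 in none. Each sequence is the RefSeq window on GRCm38.p6 from 250 bases before to 50 bases after the annotated start, read 5′ to 3′ along the gene, and capitals mark matches to a core of GAAA, any 2 bases and GAAA, the heart of the element bound by interferon-activated factors. Ifitm2 occupied chr7:140955912-140956211 on the minus strand, Ifitm1 chr7:140967826-140968125 on the plus strand, Ifitm3 chr7:141010695-141010994 on the minus strand and Ifitm6 chr7:141016843-141017142 on the minus strand.
Ifitm1: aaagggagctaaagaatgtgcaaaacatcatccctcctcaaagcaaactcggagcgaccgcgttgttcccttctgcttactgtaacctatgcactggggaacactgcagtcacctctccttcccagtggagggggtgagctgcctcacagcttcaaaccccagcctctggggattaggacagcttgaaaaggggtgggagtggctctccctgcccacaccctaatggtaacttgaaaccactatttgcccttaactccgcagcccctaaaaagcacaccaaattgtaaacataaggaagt
Ifitm2: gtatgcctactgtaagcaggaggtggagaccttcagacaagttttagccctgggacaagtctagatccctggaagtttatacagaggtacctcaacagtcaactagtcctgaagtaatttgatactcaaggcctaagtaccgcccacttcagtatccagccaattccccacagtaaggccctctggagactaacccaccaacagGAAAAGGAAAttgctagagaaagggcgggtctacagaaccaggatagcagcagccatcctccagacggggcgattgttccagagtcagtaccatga
Ifitm3: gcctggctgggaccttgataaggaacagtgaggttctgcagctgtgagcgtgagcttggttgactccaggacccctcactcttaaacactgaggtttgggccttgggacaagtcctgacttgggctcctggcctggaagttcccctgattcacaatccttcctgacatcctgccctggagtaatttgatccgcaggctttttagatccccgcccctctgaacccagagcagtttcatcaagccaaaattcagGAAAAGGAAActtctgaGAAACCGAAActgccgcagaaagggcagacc
Ifitm6: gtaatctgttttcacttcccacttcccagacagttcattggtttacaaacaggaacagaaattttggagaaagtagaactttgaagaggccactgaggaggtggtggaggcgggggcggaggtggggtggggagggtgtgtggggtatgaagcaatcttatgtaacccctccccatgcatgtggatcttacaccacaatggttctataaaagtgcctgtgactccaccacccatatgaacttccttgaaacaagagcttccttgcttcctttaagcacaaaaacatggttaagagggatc
Ifitm3 held 2 matches to this core, both followed by CT as in the longer form of the element, and Ifitm2 held 1 match to the core. Ifitm1 and Ifitm6 held 0 in these windows, which says only that these letters are not there. On either strand, 3.43% of 32817 RefSeq windows of this size held the core, 0.222% held it more than once and 0.271% held the longer form. The palindrome TTCNNNGAA, the letters of a Stat site, was found once in Ifitm3, overlapping the second core match and the CT after the first, once in Ifitm6, and in 8.29% of all windows. Of 24 other interferon-induced genes listed for comparison, 16 had a window, of which 9 held the core and 5 the longer form.

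Ifitm1, Ifitm2 and Ifitm3 were abundant in every library, while Ifitm6 was close to the limit of detection in HSC and low in HPC. Mean levels over the 20 groups spanned 321 to 2919 RPKM for Ifitm1, 1178 to 2130.3 RPKM for Ifitm2 and 438 to 2430.4 RPKM for Ifitm3. The Ifitm6 means ran up to 17.9 RPKM, and none of its reads were found in E18.5 or P14 HSC. Ordered by mean, neighbouring groups overlapped in 17 of 19 pairs for Ifitm1, in all 19 for Ifitm2 and Ifitm3 and in 18 for Ifitm6. A gap for Ifitm1 lay between Ifnar -/- and Ifnar +/- HPC with Flt3 ITD/+ at P14. The other lay between wild type P0 HSC of the genotype set and P14 HSC of the age series. These sets were deposited in separate gene tables, so set and group cannot be told apart there. For Ifitm6, wild type P0 HPC of the genotype set stood above all other groups. Identical runs of up to 69 bases are shared between Ifitm2 and Ifitm3 transcripts and up to 64 bases between Ifitm1 and Ifitm3. The share of 50-base windows held in common with another member was 5.56% for Ifitm3, 3.30% for Ifitm2, 1.42% for Ifitm1 and 0% for Ifitm6. The read length is not given in the sources used here, and reads from the shared stretches could be assigned to either gene.

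In HSC, Ifitm1 and Ifitm3 rose before birth, between E16.5 and E18.5, and Ifitm3 then fell between E18.5 and P0. Ifitm3 stood at 2563, 2314 and 2414 RPKM in E18.5 HSC, against 893, 916, 1159 and 1162 RPKM in E16.5 HSC. Every E18.5 library lay well above every E16.5 library. The rise was 2.27-fold, a log2 change of 1.19 ± 0.11 (SE), with adjusted p = 8.06e-08 in limma across all genes with Benjamini-Hochberg adjustment. Ifitm1 stood at 1267, 1339 and 1359 RPKM in E18.5 HSC, against 670.4, 676, 769.8 and 716 RPKM in E16.5 HSC. Its groups did not overlap either, and the rise was 1.79-fold (log2 0.84 ± 0.12, limma adjusted p = 6.12e-05). These were 2 of the 4 members, where 5.80% of the 13375 genes tested changed and 2.30% rose, and both calls held when any 1 of the 7 libraries was left out. Ifitm2 averaged 1447 ± 117 RPKM (SD, n = 3) at E18.5 and 1303 ± 62.0 RPKM (n = 4) at E16.5 and did not pass the test. Between E14.5 and E16.5, where 0.0523% of genes changed, 0 of 4 members passed in limma, with Ifitm1 at 708 ± 45.9 RPKM (SD, n = 4) at E16.5 and 524 ± 39.5 RPKM (n = 3) at E14.5 (unadjusted p = 0.00443, adjusted p = 0.447 in limma). In bulk libraries, fewer cells that express a gene and less RNA per cell cannot be told apart.

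The rise of Ifitm3 came with a broad rise of interferon-induced genes. Of 24 other interferon-induced genes, 21 rose between E16.5 and E18.5 and 0 fell, with a median log2 change of 1.63 where the median over all genes was -0.02. Rtp4, a chaperone induced by interferon, rose by log2 2.41 ± 0.19, and Oasl2, a member of the oligoadenylate synthetase-like family, by 2.18 ± 0.20. Of 12 interferon signalling genes 5 rose, among them Irf7, a transcription factor that amplifies the response, by log2 2.46 ± 0.24. Bst2, a tether of budding virus, rose by log2 0.74 ± 0.15, and Tmem173, the DNA-sensing adaptor Sting, fell by 0.54 on the log2 scale. Among 7 monocyte markers, Ms4a6c rose by log2 1.70 ± 0.23 and F13a1, the clotting factor subunit, fell by 2.47, and the summed level of the 7 was 21.5 to 24.0 RPKM at E18.5 and 10.5 to 16.7 RPKM at E16.5. Ms4a6c alone averaged 19.5 RPKM at E18.5 and 5.52 RPKM at E16.5. Csf1r averaged 0.320 RPKM at E18.5 and 1.18 RPKM at E16.5, and the means of Ccr2, Ly6c2 and F13a1 were also lower at E18.5. The part of monocyte content in the Ifitm changes was not tested, and F13a1 was at 0 in every E18.5 library. The progenitor marker Cd48 stood at 1.19 to 4.12 RPKM in E18.5 HSC, against 28.6 to 47.0 RPKM in E16.5 HSC, and at 26.1 to 37.1 RPKM in P0 HSC. Its E18.5 libraries overlapped neither of these groups, and its part in the Ifitm changes of both steps was not tested.

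From E18.5 to P0, Ifitm3 fell to 1415, 1559, 1795 and 1604 RPKM in P0 HSC, against the 3 E18.5 values above. Every P0 library was below every E18.5 library. The log2 change was -0.59 ± 0.11 with limma adjusted p = 0.00252, where 4.70% of genes changed and 1.74% fell. The call held in all 7 fits with 1 library left out, but with the replicate block the limma adjusted p was 0.0819. Other interferon-induced genes followed in 4 of 24 cases, led by Isg15, a ubiquitin-like modifier, with a log2 change of -1.28 ± 0.24. Ifitm1 stood at 978, 1234, 1230.1 and 1349.6 RPKM at P0 and did not pass the test. The E18.5 and P0 libraries carry different code prefixes in their titles, whose meaning is not given, so that difference and age cannot be told apart, while E14.5, E16.5 and E18.5 share a prefix.

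After birth the HSC levels moved little from one age to the next, and 0 of the 4 members passed the test in P7 against P0, P14 against P7 or adult against P14, in limma. Ifitm3 averaged 1593 ± 157 RPKM at P0, 1267 ± 45.4 RPKM at P7, 1670.2 ± 185 RPKM at P14 and 1822 ± 285 RPKM in adults (SD, n = 4 each). The smallest adjusted p of the 3 steps, 0.0548, belonged to Ifitm3 in P14 against P7. The percentages of all genes called in these steps were 5.88%, 1.70% and 5.32%. At an unadjusted p under 0.05, Ifitm3 passed in P7 against P0, Ifitm1, Ifitm2 and Ifitm3 in P14 against P7, and Ifitm1 in adult against P14. In adult against P0 HSC also 0 of 4 members passed in limma, where 20.9% of genes did, and 0 had an unadjusted p under 0.05. Adult HSC against E16.5 HSC showed the net change. Ifitm3 stood at 2083, 2032, 1486 and 1688 RPKM in adult HSC, above every E16.5 library, with a log2 change of 0.81 ± 0.11 and limma adjusted p = 1.40e-06. Ifitm1 stood at 1276, 1272, 791 and 922 RPKM in adult HSC, with a log2 change of 0.55 ± 0.11 and adjusted p = 0.000486. Ifitm2 rose by log2 0.31 ± 0.08 with adjusted p = 0.00599, at 1632 ± 209.5 RPKM in adults (SD, n = 4), and with the replicate block its limma adjusted p was 0.0729. So 3 of 4 members rose, where 24.7% of genes changed and 11.9% rose, and 17 of the 24 other interferon-induced genes rose while 1 fell. The title code prefix differs between adult and E16.5 HSC, between P7 and P0 HSC and between adult and P14 HSC. In these comparisons the prefix and the age cannot be told apart. Adult and P0 HSC share a prefix, as do P7 and P14 HSC.

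**Figure D1:**
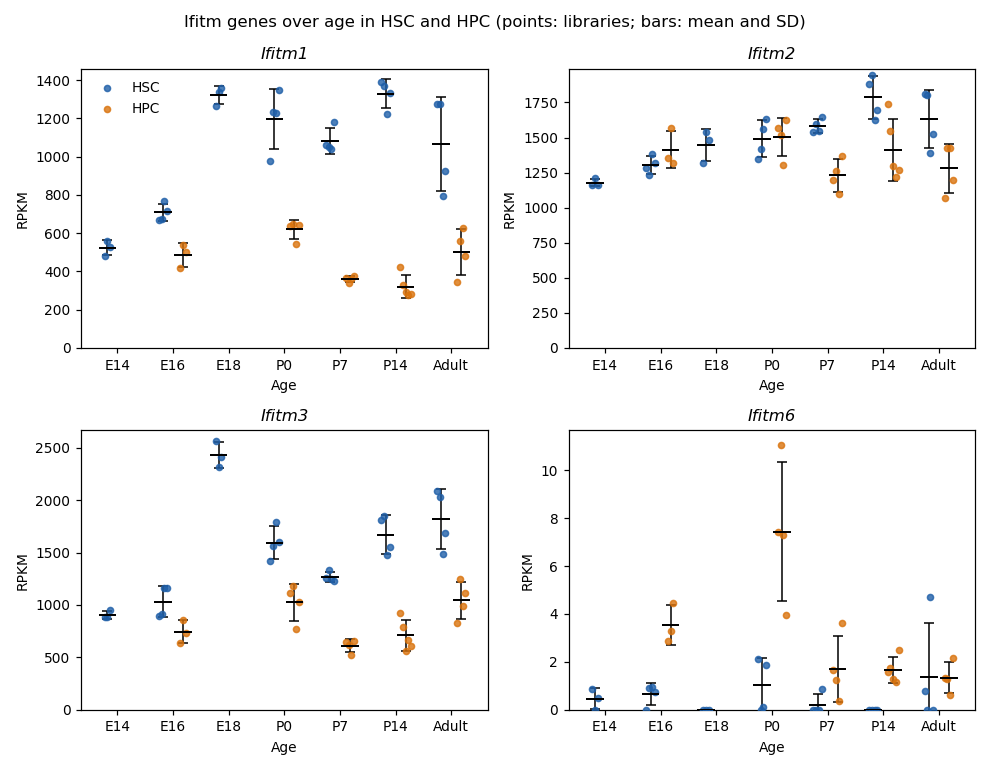
Level of Ifitm1, Ifitm2, Ifitm3 and Ifitm6 in RPKM by age in HSC and HPC of the age series, with 1 point per library and the mean and SD of each group. Ifitm3 in HSC peaks at E18.5, where its 3 libraries lie between 2314 and 2563 RPKM, and Ifitm6 lies close to 0 in HSC.

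In HPC, Ifitm1 and Ifitm6 fell between P0 and P7. Ifitm1 fell to 363, 339.9, 359 and 376 RPKM in P7 HPC, against 639, 649, 545 and 642 RPKM in P0 HPC. The groups did not overlap, and the log2 change was -0.81 ± 0.19 with adjusted p = 0.0265 in edgeR's quasi-likelihood test with Benjamini-Hochberg adjustment. Ifitm6 fell to 1.64, 1.24, 0.360 and 3.62 RPKM in P7 HPC, from 3 to 36 reads, against 7.44, 11.1, 7.28 and 3.97 RPKM in P0 HPC, from 17 to 136 reads. The highest P7 library lay just below the lowest P0 library, and the log2 change was -2.13 ± 0.47 with edgeR adjusted p = 0.0195. These were 2 of 4 members, where 1.50% of 14754 genes changed and 0.922% fell, but the calls did not hold when single libraries were left out. Ifitm1 kept its call in 1 of 8 such fits and Ifitm6 in 4 of 8. Ifitm3 averaged 609 ± 61.0 RPKM in P7 HPC and 1024 ± 178 RPKM in P0 HPC (SD, n = 4 each), with edgeR adjusted p = 0.0506. The Ifitm3 fall passed in the 6 other settings tried with all libraries, with adjusted p from 0.00157 (edgeR with the length correlation as a covariate) to 0.0201 (edgeR without a filter on low counts), and in 1 of 8 edgeR fits with 1 library left out. With the replicate block the edgeR adjusted p was 0.00511 for Ifitm3 and 0.0560 for Ifitm6.

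The other steps between HPC ages gave 0 called members of 4 in edgeR. Among all genes 9.84% passed in P14 against P7 and 28.9% in adult against P14. At an unadjusted p under 0.05, Ifitm2 passed in P14 against P7, and Ifitm1 and Ifitm2 in adult against P14. In P0 against E16.5 HPC 3.27% of genes changed, Ifitm3 and Ifitm6 had an unadjusted p under 0.05, and 20 of the 24 other interferon-induced genes rose, with a median log2 change of 1.41. Ifitm3 stood at 1110.4, 1181, 773 and 1032 RPKM in P0 HPC, against 641, 859 and 737 RPKM in E16.5 HPC. The lowest P0 library lay inside the E16.5 range. In adult HPC against E16.5 HPC, 1 of 4 members passed, where 27.0% of genes did and 12.0% fell. Ifitm6 stood at 1.31, 1.28, 0.628 and 2.17 RPKM in adult HPC, below the 2.85, 3.30 and 4.46 RPKM of E16.5 HPC (log2 change -1.51 ± 0.52, edgeR adjusted p = 0.0347). That call held in 2 of 7 fits with 1 library left out, with edgeR adjusted p up to 0.0873, and with the replicate block the edgeR adjusted p was 0.0901. In the same comparison 23 of the 24 other interferon-induced genes rose. A test of whether the adult against E16.5 change differed between HSC and HPC called 0 of 4 members in limma, with adjusted p of 0.102 for Ifitm1, 0.0800 for Ifitm2, 0.307 for Ifitm3 and 0.391 for Ifitm6, where 4.05% of 14060 genes passed. At an unadjusted p under 0.05, Ifitm1 and Ifitm2 passed. Each HPC age has a title code of its own, so the code and the age cannot be told apart.

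Ifitm1 and Ifitm3 were higher in HSC than in HPC at P0, P7, P14 and in adults, and Ifitm6 was lower in HSC at E16.5, P0, P7 and P14. At P14, Ifitm1 stood at 1390.0, 1370.1, 1222 and 1331 RPKM in HSC, against 421, 326, 294, 279 and 283 RPKM in HPC. No HPC library reached a level near that of any HSC library, and the log2 difference was 1.84 ± 0.16 with limma adjusted p = 2.17e-12. The Ifitm1 difference was log2 0.82 ± 0.16 at P0, 1.52 ± 0.16 at P7 and 1.15 ± 0.16 in adults, all past the threshold, and 0.46 ± 0.18 at E16.5 with limma adjusted p = 0.0574. Ifitm3 stood at 1807, 1848, 1474 and 1552 RPKM in P14 HSC and at 919.5, 793, 559, 661 and 611 RPKM in P14 HPC. Its log2 difference was 0.52 ± 0.17 at P0, 0.99 ± 0.17 at P7, 1.03 ± 0.16 at P14 and 0.86 ± 0.17 in adults, again past the threshold, and 0.37 ± 0.18 at E16.5 with limma adjusted p = 0.141. Without the third P0 HPC library the Ifitm3 difference at P0 was 0.38 with limma adjusted p = 0.0935. In the age series all HSC libraries were deposited as RPKM and all HPC libraries as counts, with different title codes. Cell type and processing therefore cannot be fully told apart in these comparisons. Summed sex-linked markers stood at 3.59 to 8.37 RPKM in adult HSC and 34.9 to 53.8 RPKM in adult HPC, with no overlap. At P0, P7 and P14 their ranges overlapped between HSC and HPC. Their part in the adult differences was not tested.

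Ifitm6 had 0 reads in the 4 HSC libraries at P14, where 3 reads would have been 0.231 to 0.447 RPKM, and 13, 24, 12, 15 and 26 reads in the 5 HPC libraries (limma adjusted p = 0.000798). At P0 it stood at 2.12, 0, 0.120 and 1.85 RPKM in HSC and at 7.44, 11.1, 7.28 and 3.97 RPKM in HPC, with no overlap (limma adjusted p = 0.000111). At E16.5, where 10.8% of genes were lower in HSC, and at P7 it was also lower in HSC (limma adjusted p = 0.0141 and 0.0176), although the same reads tested in edgeR gave 0.124 and 0.0758. Ifitm2 passed the test in adults, higher in HSC by log2 0.41 ± 0.14 with limma adjusted p = 0.0233, and missed the threshold at the other 4 ages. The Ifitm2 call in adults held in 4 of 8 fits with 1 library left out, with limma adjusted p up to 0.123, and with the replicate block the limma adjusted p was 0.0652. At P7 the replicate block gave Ifitm2 a limma adjusted p of 0.0257. In adults the 3 members that passed were higher in HSC, as were 14.1% of genes. The share of all genes that differed between HSC and HPC was 23.4% at E16.5, 39.2% at P0, 41.7% at P7, 37.8% at P14 and 28.7% in adults. Of the 4 members, 1, 3, 3, 3 and 3 did so in that order. At P14 the summed level of the monocyte markers was 24.2 to 36.0 RPKM in HSC and 27.0 to 134 RPKM in HPC, which overlapped, with 5 of the 7 lower in HSC and 1 higher. In P0 HPC the sum was 35.2 to 55.7 RPKM, where Ifitm6 averaged 7.44 RPKM, while Ifitm6 averaged 1.65 RPKM in P14 HPC. Single markers went different ways between these HPC ages. Csf1r averaged 14.4 RPKM at P0 and 4.62 RPKM at P14, and Ly6c2 averaged 1.17 RPKM at P0 and 33.7 RPKM at P14. The part of monocyte content in the Ifitm6 differences was not tested.

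The wild type libraries of the P0 genotype set gave the same comparison again in other samples. Ifitm1 stood at 1583, 1419.6, 1519, 1493 and 1488 RPKM in HSC, against 797, 751, 855 and 742 RPKM in HPC. The log2 difference was 0.95 ± 0.10 (edgeR adjusted p = 3.69e-06), close to the P0 difference of the age series. Ifitm6 had 6, 4, 12, 19 and 18 reads in HSC and 107, 148, 163 and 103 reads in HPC, although the HSC libraries were deeper. Its log2 difference was -5.11 ± 0.40 (edgeR adjusted p = 2.64e-07). Ifitm3, at 1867 ± 519.9 RPKM in HSC (SD, n = 5) and 1571 ± 411 RPKM in HPC (n = 4), did not pass the test (log2 0.28, edgeR adjusted p = 0.330), nor did Ifitm2 (log2 0.25, adjusted p = 0.0740). Thus 2 of 4 members differed, where 56.2% of 16053 genes did. The HSC and HPC libraries of this set carry different bracketed codes in their titles, whose meaning is not given. That difference and the cell type cannot be told apart.

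In Ifnar -/- mice at P0, Ifitm3 fell in both HSC and HPC and Ifitm6 fell in HPC, while Ifitm1 and Ifitm2 did not pass the test. In P0 HSC, Ifitm3 stood at 696, 866, 758 and 1005 RPKM in Ifnar -/- libraries, against 1638, 1482, 1401, 2209 and 2606 RPKM in wild type libraries. All 4 knockout libraries lay below all 5 wild type libraries. The log2 change was -1.18 ± 0.21 with a 95% interval of -1.63 to -0.72 and edgeR adjusted p = 0.0101. This was 1 of 4 members, where 1.14% of 16224 genes changed and 0.931% fell. The call held in 8 of the 9 fits with 1 library left out, and without the first knockout library the adjusted p was 0.0630.

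Ifitm1 in P0 HSC stood at 1724, 2026, 1491 and 1839 RPKM in Ifnar -/- libraries and at 1583, 1419.6, 1519, 1493 and 1488 RPKM in wild type libraries, so the groups overlapped (log2 0.25 ± 0.12, 95% interval -0.01 to 0.51, edgeR adjusted p = 0.560). Ifitm2 averaged 2130.3 ± 355 RPKM in Ifnar -/- HSC (SD, n = 4) and 1808 ± 66.4 RPKM in wild type HSC (n = 5), with edgeR adjusted p = 0.611. Its interval ran from -0.05 to 0.54 on the log2 scale. Ifitm6 had 4, 10, 10 and 20 reads in Ifnar -/- HSC and 6, 4, 12, 19 and 18 reads in wild type HSC. At so few reads its 95% interval, from -1.39 to 1.15 on the log2 scale, leaves a change of either sign possible.

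In P0 HPC, Ifitm3 stood at 489, 492, 583 and 605 RPKM in Ifnar -/- libraries, against 2021, 1229, 1817 and 1216 RPKM in wild type libraries. All 4 knockout libraries lay well below all 4 wild type libraries. The log2 change was -1.61 ± 0.17 (95% interval -1.98 to -1.24, edgeR adjusted p = 7.21e-05). Ifitm6 fell to 0.633, 2.46, 1.82 and 1.85 RPKM in Ifnar -/- libraries, against 15.0, 21.3, 22.2 and 12.9 RPKM in wild type libraries. That is 4, 17, 13 and 13 reads in Ifnar -/- libraries and 107, 148, 163 and 103 reads in wild type libraries, and the log2 change was -3.45 ± 0.37 (95% interval -4.26 to -2.64, edgeR adjusted p = 8.49e-05). Both calls held in all 8 fits with 1 library left out. They were 2 of 4 members, where 10.4% of 12988 genes changed and 5.40% fell.

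Ifitm1 and Ifitm2 did not pass the test in P0 HPC. Ifitm1 stood at 537, 576, 766 and 834 RPKM in Ifnar -/- libraries and 797, 751, 855 and 742 RPKM in wild type libraries (log2 -0.28 ± 0.13, edgeR adjusted p = 0.199). Its 95% interval, -0.57 to 0.01, did not overlap that of the Ifitm3 change. Ifitm2 averaged 1379 ± 26.1 RPKM in Ifnar -/- HPC and 1543 ± 164 RPKM in wild type HPC (SD, n = 4 each; log2 -0.23 ± 0.10, edgeR adjusted p = 0.160). The fourth wild type library differed from the other 3 in how its levels followed gene length, with a Spearman correlation over genes of 0.187 against -0.297 to -0.233. The knockout libraries lay at 0.0800 to 0.240. Without that library Ifitm2 passed as well (log2 -0.30, edgeR adjusted p = 0.0265), where 17.9% of genes did.

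**Figure D2:**
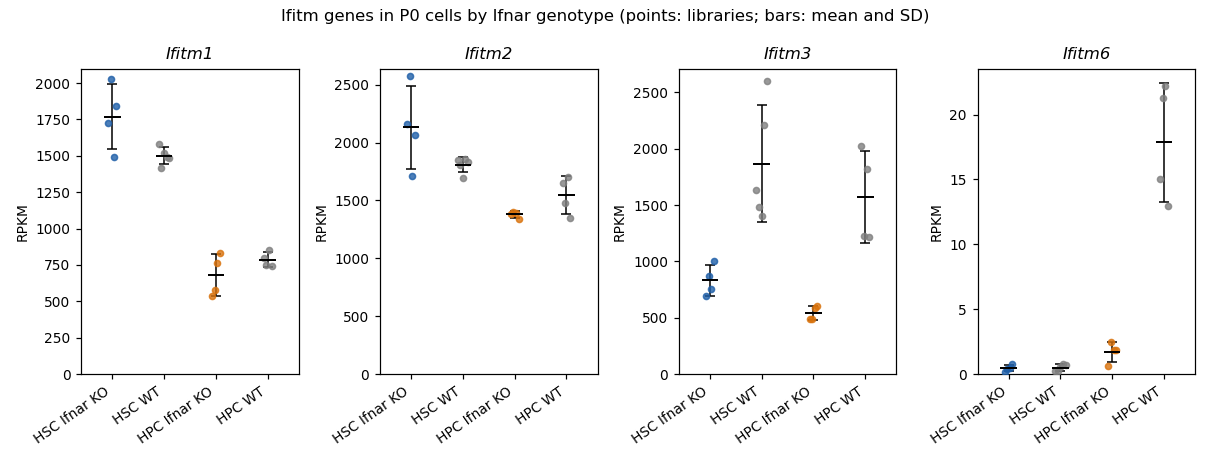
Level of the 4 members in RPKM in P0 HSC and P0 HPC, Ifnar -/- left of wild type, with 1 point per library and the mean and SD of each group. Ifitm3 in Ifnar -/- libraries lies between 489 and 1005 RPKM, below all 9 wild type libraries, and Ifitm6 lies between 12.9 and 22.2 RPKM in wild type HPC, above the other 3 groups.

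The Ifnar changes in HSC and HPC were also set against each other. For Ifitm6 the difference of log2 changes, HSC minus HPC, was 3.35 ± 0.66 (edgeR adjusted p = 0.0106, called in all 17 fits with 1 library left out), where 1.70% of 17191 genes differed and 0.686% had a positive difference. In wild type HSC the gene had at most 19 reads, at 0.492 ± 0.266 RPKM (SD, n = 5). The 95% interval of its HSC change, given above, did not reach its HPC change, but it rests on these few reads. HSC and HPC also carry different bracketed title codes, and the source of the difference in log2 changes was not tested. For Ifitm3 the difference was 0.44 ± 0.30 with a 95% interval of -0.18 to 1.06 (edgeR adjusted p = 0.529). For Ifitm1 it was 0.55 ± 0.19 (adjusted p = 0.165) and for Ifitm2 0.50 ± 0.19 (adjusted p = 0.201).

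The other interferon-induced genes fell with Ifitm3 in the knockouts. In P0 HSC 22 of 24 fell and 0 rose, with a median log2 change of -3.67, and in P0 HPC all 24 fell, with a median of -4.40, where the all-gene medians were 0.00 and 0.01. Rtp4 changed by log2 -7.01 ± 0.36 in HSC and -6.47 ± 0.26 in HPC, and Ifi27, a mitochondrial protein, by -4.23 ± 0.21 in HSC and -4.93 ± 0.16 in HPC. Of the 12 signalling genes 4 fell in HSC, led by Irf9, a DNA-binding factor of the interferon response, at -2.25 ± 0.15. In HPC 4 fell and 1 rose, with Irf7 at -5.26 ± 0.26 and Jak2, a signalling kinase, at 0.65 ± 0.13. Bst2 changed by -1.27 ± 0.20 in HSC and -1.98 ± 0.18 in HPC, and Ly6e, a membrane protein that acts on virus entry, by -0.96 ± 0.09 in HPC. The Ifitm3 changes of -1.18 and -1.61 were thus smaller than the medians of that list, and its lowest knockout level, 489 RPKM, was still high.

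Monocyte markers also moved with genotype in HPC. In P0 HPC 6 of 7 fell, among them the receptor Csf1r at log2 -1.82 ± 0.20 and the surface antigen Ly6c2 at -4.59 ± 0.65. Their summed level was 12.4 to 19.1 RPKM in Ifnar -/- HPC and 45.6 to 65.0 RPKM in wild type HPC. In P0 HSC 1 of 7 fell, Ms4a6c at -1.73 ± 0.21, with sums of 5.61 to 8.10 RPKM in Ifnar -/- HSC and 14.4 to 24.6 RPKM in wild type HSC. None of the 7 was at 0 throughout any of these groups. Other cell type markers differed as well in P0 HPC. Summed megakaryocyte markers stood at 198 to 361 RPKM in Ifnar -/- and 101 to 159 RPKM in wild type libraries. Erythroid markers stood at 9.27 to 34.9 RPKM in Ifnar -/- and 4.48 to 5.16 RPKM in wild type libraries. T and NK cell markers were lower, at 43.5 to 72.2 RPKM against 81.8 to 125 RPKM. The part of monocyte content, or of these other cell types, in the Ifitm3 and Ifitm6 changes was not tested.

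At P14 the Ifnar effect on Ifitm3 in Flt3 +/+ HPC had the same sign and rested on less certain ground. Ifitm3 stood at 385, 525, 389.7 and 452 RPKM in Ifnar -/- libraries, against 794, 629.7, 1034 and 827 RPKM in Ifnar +/- libraries. The groups did not overlap, and the log2 change was -1.12 ± 0.25 (95% interval -1.64 to -0.59, edgeR adjusted p = 0.0350). It was 1 of 4 members, where 4.39% of 17464 genes changed and 3.31% fell, and the call held in 1 of 8 fits with 1 library left out. With the replicate block the Ifitm3 change was -1.09 with edgeR adjusted p = 0.145. Ifitm1 had 348, 441, 392 and 432 RPKM in Ifnar -/- libraries and 709, 294, 462 and 358 RPKM in Ifnar +/- libraries (edgeR adjusted p = 0.283). Ifitm2 averaged 1409 ± 168 RPKM in Ifnar -/- HPC and 1918 ± 486 RPKM in Ifnar +/- HPC (SD, n = 4 each), with edgeR adjusted p = 0.0664. Ifitm6 had 24, 8, 14 and 31 reads in Ifnar -/- libraries and 78, 8, 19 and 65 reads in Ifnar +/- libraries (edgeR adjusted p = 0.114).

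The second Ifnar +/- Flt3 +/+ library differed from the other 3 of its group. Its levels followed gene length with a Spearman correlation of 0.285, against -0.388 to -0.256 in the other 3, while the Ifnar -/- Flt3 +/+ libraries lay at 0.122 to 0.285. Flt3 itself stood at 141 RPKM in that library and at 13.4 to 20.7 RPKM in the other 3, and at 78.4 to 133 RPKM in the Ifnar -/- Flt3 +/+ libraries. Without it all 4 members were called lower in Ifnar -/- HPC, Ifitm3 with edgeR adjusted p = 0.000937, Ifitm2 with 0.00189, Ifitm6 with 0.00956 and Ifitm1 with 0.0396, but so were 35.5% of all genes called in one direction or the other. With the length correlation as a covariate, 0 members and 24 genes were called. The Ifitm3 change was then -0.57 on the log2 scale, and Ifitm1 turned to 0.21. The part of this gradient in the Flt3 +/+ comparison was not tested further. The progenitor gene Kit ran from 13.6 to 219 RPKM over the Ifnar +/- Flt3 +/+ libraries. It ran from 173 to 207 RPKM in Ifnar -/- Flt3 +/+ HPC and from 64.9 to 218 RPKM in P14 HPC of the age series. Which Ifnar +/- Flt3 +/+ libraries are the unusual ones was not tested.

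With Flt3 ITD/+, Ifitm3 and Ifitm6 fell in Ifnar -/- HPC against Ifnar +/- HPC, and Ifitm1 did not pass the test. These libraries also entered the comparison by which Ifitm1 was chosen. Ifitm6 fell to 1.49, 1.80, 1.28, 1.66 and 1.69 RPKM in Ifnar -/- libraries, against 8.61, 4.83, 11.4 and 7.03 RPKM in Ifnar +/- libraries. The 5 knockout libraries lay close together and below all 4 heterozygous libraries, with a log2 change of -2.37 ± 0.49 (95% interval -3.39 to -1.35, edgeR adjusted p = 0.00865) that was called in all 9 fits with 1 library left out. Ifitm3 stood at 968, 809, 803, 929 and 996 RPKM in Ifnar -/- libraries, against 992, 1379, 2168 and 1995 RPKM in Ifnar +/- libraries. The lowest heterozygous library overlapped the knockouts, and the log2 change of -0.91 ± 0.23 (edgeR adjusted p = 0.0346) was called in 2 of 9 fits with 1 library left out. With the replicate block it was -0.88 with edgeR adjusted p = 0.0871. These were 2 of 4 members, where 4.03% of genes changed and 1.92% fell.

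Ifitm1 in the same libraries stood at 3085, 2497, 2418, 3067 and 3529.5 RPKM with Ifnar -/-, against 1742, 1961, 1925 and 2055 RPKM with Ifnar +/-. Every knockout library lay above every heterozygous library, but the log2 change of 0.57 ± 0.23 did not pass the test (edgeR adjusted p = 0.178). In a fit of these 2 groups alone it was 0.57 with edgeR adjusted p = 0.0265. Ifitm2 averaged 1948 ± 210.5 RPKM with Ifnar -/- (SD, n = 5) and 1547 ± 106 RPKM with Ifnar +/- (n = 4), a log2 change of 0.29 ± 0.20 (edgeR adjusted p = 0.446). The other interferon-induced genes fell in 22 of 24 cases with a median log2 change of -3.53 in Flt3 ITD/+ HPC, and in 15 of 24 with a median of -2.04 in Flt3 +/+ HPC. Irf7 changed by log2 -4.92 ± 0.36 in Flt3 ITD/+ HPC and by -2.37 ± 0.36 in Flt3 +/+ HPC. Monocyte markers fell in 4 of 7 cases with Flt3 ITD/+, with summed levels of 12.9 to 20.1 RPKM in Ifnar -/- HPC and 38.8 to 105 RPKM in Ifnar +/- HPC. In Flt3 +/+ HPC 1 of 7 fell, with sums of 9.50 to 12.7 RPKM in Ifnar -/- and 14.9 to 60.5 RPKM in Ifnar +/- libraries, and their part in the Ifitm changes was not tested.

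**Figure D3:**
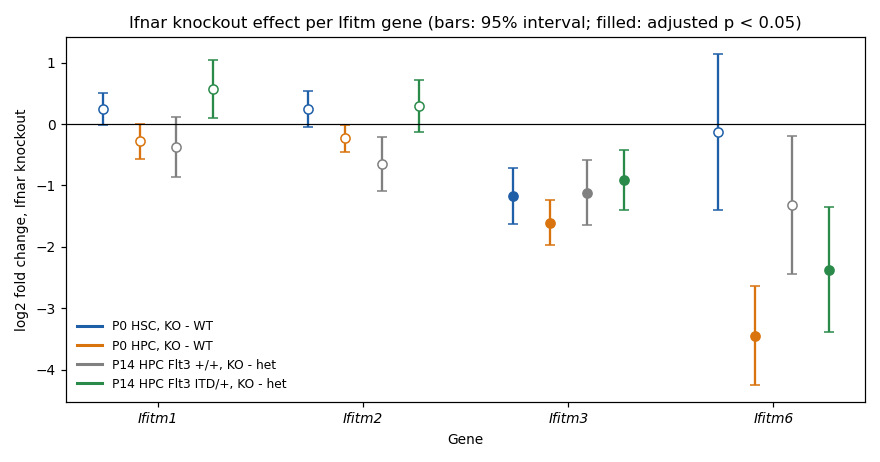
Log2 change with its 95% interval for each member in the 4 comparisons of Ifnar -/- with its control, from edgeR, where a filled marker has an adjusted p under 0.05. Ifitm3 lies between -0.91 and -1.61 in all 4, and the Ifitm1 values lie between -0.38 and 0.57.

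The Flt3 ITD comparison is the one by which Ifitm1 was chosen, and its values are given for all 4 members. In Ifnar +/- HPC, Ifitm1 stood at 1742, 1961, 1925 and 2055 RPKM with Flt3 ITD/+, against 709, 294, 462 and 358 RPKM with Flt3 +/+. The difference was 3.93-fold, a log2 fold of 1.98 ± 0.24, and 1.78 to 2.23 with 1 library left out. This Flt3 +/+ group is the one whose second library, here at 294 RPKM, differed from the rest, and all folds against the group carry that limit. In Ifnar -/- HPC Ifitm1 stood at the 5 values above, between 2418 and 3529.5 RPKM, with Flt3 ITD/+, against 348, 441, 392 and 432 RPKM with Flt3 +/+. The difference was 7.56-fold, a log2 fold of 2.92 ± 0.25. With Flt3 ITD/+, Ifitm1 in HPC stood above its highest library in HSC of any set, 2026 RPKM, in all 5 Ifnar -/- libraries.

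In Ifnar +/- HPC the log2 fold with Flt3 ITD/+ was larger for Ifitm6 than for Ifitm1, and in Ifnar -/- HPC it was smaller. Ifitm3 was at 992, 1379, 2168 and 1995 RPKM with Flt3 ITD/+ and 794, 629.7, 1034 and 827 RPKM with Flt3 +/+ in Ifnar +/- HPC, a log2 fold of 0.90 ± 0.25 with overlapping groups. In Ifnar -/- HPC it was at 803 to 996 RPKM with Flt3 ITD/+ and 385 to 525 RPKM with Flt3 +/+, a log2 fold of 1.10 ± 0.24. Against Ifnar +/- Flt3 +/+ HPC, the doubly mutant HPC had Ifitm3 at a log2 fold of -0.01 ± 0.24 and Ifitm1 at 2.54 ± 0.24. Ifitm6 had a log2 fold of 2.87 ± 0.54 in Ifnar +/- HPC, where Flt3 ITD/+ libraries held 4.83 to 11.4 RPKM and Flt3 +/+ libraries 0.222 to 1.99 RPKM. Monocyte markers moved with it, since Csf1r stood at 7.89 to 12.7 RPKM with Flt3 ITD/+ and 0.536 to 3.40 RPKM with Flt3 +/+, and the summed level of the 7 markers at 38.8 to 105 RPKM with Flt3 ITD/+ and 14.9 to 60.5 RPKM with Flt3 +/+. Their part in the Ifitm6 values was not tested. In Ifnar -/- HPC its log2 fold was 1.81 ± 0.52, at 1.28 to 1.80 RPKM with Flt3 ITD/+ and 0.164 to 0.780 RPKM with Flt3 +/+. For Ifitm2 the log2 fold was -0.42 ± 0.21 in Ifnar +/- HPC and 0.53 ± 0.20 in Ifnar -/- HPC, and it moved to -0.0031 and 0.20 with the length correlation as a covariate.

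**Figure D4:**
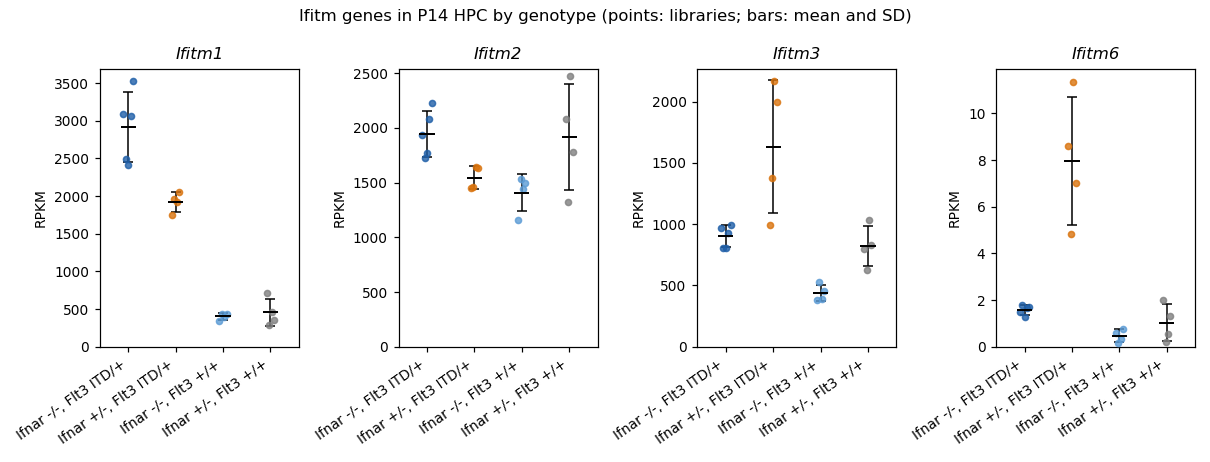
Level of the 4 members in RPKM in the 4 groups of P14 HPC, with 1 point per library and the mean and SD of each group. Ifitm1 lies between 1742 and 3529.5 RPKM in the 9 Flt3 ITD/+ libraries and between 294 and 709 RPKM in the 8 Flt3 +/+ libraries.

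The 6 listed genes that respond to Stat5, through which Flt3 ITD is known to signal, or to Flt3 had a median log2 fold with Flt3 ITD/+ of 1.20 in Ifnar -/- HPC and 1.51 in Ifnar +/- HPC. Socs2, a feedback inhibitor, had a log2 fold of 3.83 ± 0.24 with Flt3 ITD/+ in Ifnar -/- HPC and 3.96 ± 0.25 in Ifnar +/- HPC. The kinase gene Pim1 had 0.84 ± 0.21 in Ifnar -/- HPC and 1.23 ± 0.22 in Ifnar +/- HPC. The other interferon-induced genes had a median log2 fold of -0.26 with Flt3 ITD/+ in Ifnar -/- HPC and 1.43 in Ifnar +/- HPC. The comparisons with Flt3 +/+ share control libraries with those of Ifnar, so these folds are set side by side only, and no difference between them was tested.

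Since Ifitm1 and Ifitm3 lie in the same cluster, their ratio within a library was followed as well. With Ifnar -/- the ratio of Ifitm3 to Ifitm1 in RPKM was 0.472 ± 0.0671 in P0 HSC (SD, n = 4), against 1.25 ± 0.353 in wild type HSC (n = 5). It was 0.813 ± 0.0846 in Ifnar -/- P0 HPC and 1.98 ± 0.434 in wild type P0 HPC (SD, n = 4 each). In neither cell type did the ranges overlap. At P14 the ratio was 0.311 ± 0.0195 in Ifnar -/- Flt3 ITD/+ HPC (n = 5) and 0.842 ± 0.252 in Ifnar +/- Flt3 ITD/+ HPC (n = 4), and 1.08 ± 0.0850 in Ifnar -/- Flt3 +/+ HPC and 1.95 ± 0.559 in Ifnar +/- Flt3 +/+ HPC (n = 4 each). The 5 Ifnar -/- Flt3 ITD/+ libraries ran from 0.282 to 0.332, and the Ifnar +/- Flt3 ITD/+ libraries from 0.569 to 1.13, without overlap. With Flt3 +/+ the ranges overlapped, at 0.994 to 1.19 in Ifnar -/- HPC and 1.12 to 2.31 in Ifnar +/- HPC. Since Ifitm1, the lower term of the ratio, was chosen for its level with Flt3 ITD/+, a low ratio in the Flt3 ITD/+ groups follows from that choice.

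**Figure D5:**
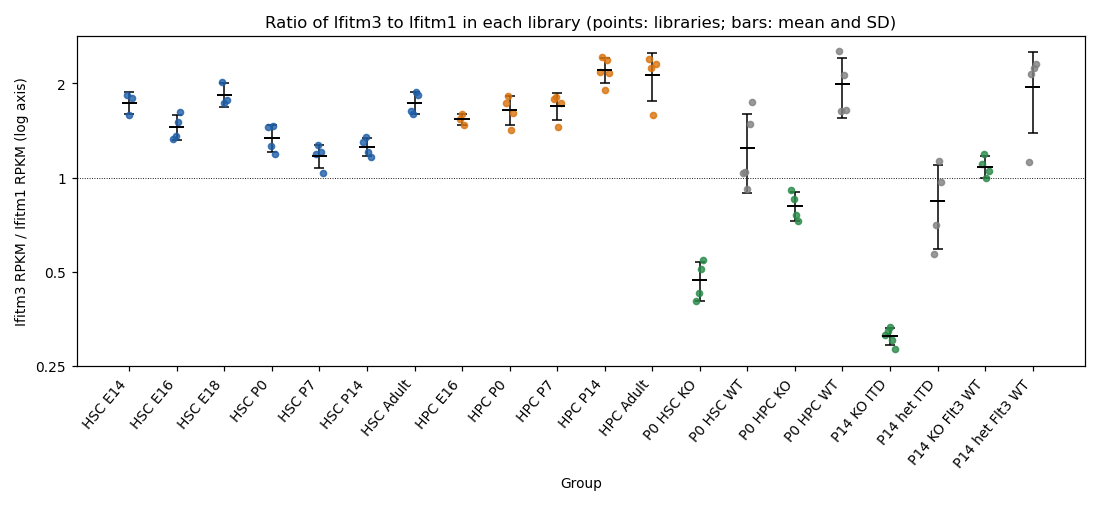
Ratio of Ifitm3 to Ifitm1, both in RPKM, on a log axis in each library of all 20 groups, with the mean and SD of each group and Ifnar -/- left of its control. The 5 Ifnar -/- Flt3 ITD/+ libraries lie at 0.282 to 0.332, below all other libraries.

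Likeness was ranked among tested genes with a symbol, leaving out names made of Gm and a number or ending in Rik. Those with the pattern most like Ifitm3 over the 26 HSC libraries of the age series were Oasl2 (Pearson r = 0.911), Slfn2 (0.911) and Ifi44 (0.900). For Ifitm1 they were Ctsf (0.901), Gstm1 (0.897) and Napsa (0.892), and for Ifitm2 Pdzk1ip1 (0.916), Gstm1 (0.905) and Rtl8c (0.894). For Ifitm6 the highest was Rhoq at 0.617, on a gene with 0 reads in many of these libraries. Over the 17 P14 HPC libraries, Ifitm1 was most like Il18r1 (0.978), Serpina3g (0.977) and Clec10a (0.964), and Ifitm3 most like Pkib (0.895), Ass1 (0.893) and Slfn2 (0.882). Ifitm2 was most like the ribosomal protein genes Rpl8 (0.981) and Rplp2 (0.978) and the gene Nudt16l1 (0.975). Ifitm6 was most like Klrb1f (0.922), Emb (0.911) and Cyp4f18 (0.900). Between members, r over the HSC ages was 0.826 for Ifitm1 and Ifitm3, 0.777 for Ifitm1 and Ifitm2 and 0.552 for Ifitm2 and Ifitm3. Over P14 HPC it was 0.800 for Ifitm3 and Ifitm6, 0.641 for Ifitm1 and Ifitm3 and 0.377 for Ifitm1 and Ifitm2. The libraries behind these values share age or genotype groups, depth and composition, so they describe likeness only.

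Neighbouring genes and other members of the family were counted in the 4 Ifnar comparisons, where the shares of all genes called, given above, were 1.14% in P0 HSC, 10.4% in P0 HPC, and 4.39% with Flt3 +/+ and 4.03% with Flt3 ITD/+ at P14. At such shares few calls or none would be met in lists this short, so nothing particular to these genes is read from the counts. Of the 12 locus neighbours, 7 were tested in P0 HSC and in each P14 comparison, and 0 passed in edgeR. In P0 HPC 1 of 6 tested neighbours rose, Nlrp6, a sensor of the inflammasome family, by log2 2.31 ± 0.43. Ifitm5, known from bone, Ifitm7 and Ifitm10 did not pass in any of the 4 Ifnar comparisons where they were tested. Of 8 genes for proteins that bind or modify Ifitm proteins, such as the protease Zmpste24 and the palmitoyltransferase Zdhhc20, 0 passed in any of the 4.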

How the data were processed

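RNA was extracted with a Qiagen RNeasy micro plus kit and libraries were made with a Clontech kit spelled SMRTr, per the labels. STAR (given as version 3.0.4), Subread and featureCounts (1.4.5) were used, as the submitters' processing notes list. Which genome build and gene models served for counting is not given in the sources used here. The authors deposited raw read counts per gene for the HPC age series and all genotype libraries, and RPKM values for the HSC age series, in 2 gene tables. 1 column of values that matched no sample was not used.

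The deposited RPKM are whole multiples of what 1 read is worth in each gene and library, so reads and gene lengths were recovered from them. All values of 25622 detected genes came out whole (100%, within 1e-05), and the recovered reads made up 99.9985 to 100% of the totals. Lengths came from GENCODE M21 for 16638 genes and from the values for 8984. The same lengths gave RPKM for the count libraries, with 1094 bases for Ifitm1, 627 for Ifitm2, 678 for Ifitm3 and 541 for Ifitm6. Levels in the text are RPKM without further scaling.

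Counts were tested in edgeR 4.0.16 (R 4.3.3) with TMM scaling and the quasi-likelihood test, over the genes of a set that passed edgeR's filter on low counts. A gene can pass that filter through its level in a single group. RPKM, and HSC against HPC of the age series, were tested in limma 3.58.1 on log2 of RPKM after TMM scaling, with 0.5 added; a gene entered when at least 3 libraries exceeded 1 RPKM. Such log2 values understate the change of low genes. Adjusted p-values are Benjamini-Hochberg over all genes tested, with a threshold of 0.05, and edgeR standard errors are approximate, from the fold and the F statistic. DESeq2 1.42.0, other scalings and filters, fits of 2 groups, a replicate block, leaving out each library and, added after the data were seen, the correlation of a library with gene length as a covariate were tried. The fits were tested on simulated data. No comparison had every pair of same-numbered libraries correlated above 0.1, so the numbers were not taken to pair libraries.

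The members, the gene lists and the tests were chosen with earlier results of these data known. All 4 members are named throughout, along with Ifnar1 and Flt3, and other genes come from lists, with up to 4 of smallest adjusted p named per list and comparison, plus the 3 genes most like each member by Pearson r. That ranking left out genes without a symbol and names of the Gm or Rik form.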

Additional observations from a re-analysis of the deposited data

Results flagged for a closer look

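Of 67 member-by-group sets of 4 to 10 libraries, 4 had a library far from the rest by Dixon's criterion, where chance gives about 1 in 20. Ifitm1 stood at 1182 RPKM in the fourth P7 HSC library and at 1037 to 1059 RPKM in the other 3. It stood at 545 RPKM in the third P0 HPC library of the age series and at 639 to 649 RPKM in the other 3. Ifitm6 stood at 0.870 RPKM in the fourth P7 HSC library, the deepest of the group, and at 0 in the other 3, and at 4.71 RPKM in the third adult HSC library, against 0.794 RPKM or less in the other 3.

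The Ifnar changes of Ifitm6 in P0 HSC and P0 HPC gave a difference of 3.35 on the log2 scale, HSC minus HPC (edgeR adjusted p = 0.0106). Ifitm6 had 4 to 20 reads in Ifnar -/- HSC and 4 to 19 reads in wild type HSC, so the value sets a gene near its floor in HSC against a higher level in HPC. The interval of the HSC change did not reach the HPC change, but it rests on these few reads. The source of the difference was not tested.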

How the results depend on the processing

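In P0 HSC and P0 HPC the number of members lower with Ifnar -/- (1 and 2) stayed the same under every alternative other than leaving out libraries, which gave 0 to 1 in HSC; Ifitm6 in P0 HSC turned to 0.11 with the replicate block and ranged over -0.52 to 0.13 with 1 library left out, positive at 0.07, 0.13 and 0.13. At P14 with Flt3 +/+, the 1 member called became 3 in DESeq2, 0 without TMM scaling, with the length covariate, in the fit of 2 groups alone and with the replicate block, and 0 to 4 with 1 library left out. With Flt3 ITD/+, the 2 called became 1 with the replicate block and 1 to 2 with 1 library left out. The ITD log2 folds moved with the length covariate, Ifitm1 to 2.43 (Ifnar +/-) and 2.56 (Ifnar -/-), Ifitm2 to -0.0031 and 0.20, and Ifitm3 to 0.77 (Ifnar -/-). That covariate reversed HSC against HPC in wild type P0 libraries to -0.035 for Ifitm2 and -0.37 for Ifitm3, and Ifnar -/- against Ifnar +/- with Flt3 +/+ to 0.21 for Ifitm1.

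Among ages, the replicate block took the 1 call of HSC P0 against E18.5 and of HPC adult against E16.5 to 0. It also took Ifitm2 past the threshold for HSC against HPC at P7, took it back for adult against E16.5 HSC and adult HSC against HPC, and exchanged Ifitm6 for Ifitm3 in HPC P7 against P0, and it changed no other call of a member except those named here. HSC P14 against P7 (0 called) gave 1 without TMM scaling, with the length covariate, in the fit of 2 groups and with the replicate block. The length covariate gave 1 for HSC P7 against P0 (from 0), 2 for HSC adult against P0 (from 0), 2 for HPC P14 against P7 (from 0) and 1 for the difference of age changes (from 0). HPC adult against P14 (0 called) gave 1 in DESeq2 and 2 without TMM scaling or with the length covariate. HSC against HPC at E16.5 (1 called) gave 3 without TMM scaling or with the length covariate, 2 in the fit of 2 groups and 0 in edgeR on recovered reads. Leaving out 1 library gave 0 to 3 for HPC P7 against P0, 0 to 1 for HPC adult against P14, HPC adult against E16.5, HSC P14 against P7, HSC adult against P14 and the difference of age changes, and 0 to 2 for HSC adult against P0 and HSC against HPC at E16.5. The causes were not tested. Over all genes, the P0 HPC count of 1347 became 279 with the length covariate, the P0 HSC count of 185 became 336 in DESeq2, the Flt3 +/+ count of 766 became 3045 in DESeq2, 96 without TMM scaling, 24 with the length covariate, 38 in the fit of 2 groups and 50 with the replicate block, and the Flt3 ITD/+ count of 704 became 1341 in DESeq2 and 1308 in the fit of 2 groups. Depth limits Ifitm6 in HSC, where a library could miss up to 3 reads.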
